A study of Mus musculus with 284 samples.

Results

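The mitotic spindle and kinetochore genes described here are 37 genes whose products build the mitotic spindle, attach chromosomes to it, hold the spindle checkpoint or drive and end mitosis. They were chosen by name from a fixed list, and all 37 were found among the 54247 genes of the table. The data are single cell transcriptomes of tumour propagating cells, sorted from skin tumours of C57BL/6 mice as living cells with CD34, CD49f (integrin alpha 6) and a YFP reporter that Cre under the keratin 14 promoter switches on. In all 4 mice the tumours were raised with 1 dose of the carcinogen DMBA at 8 weeks of age, then with repeated TPA, a tumour promoter, over more than 20 weeks. The mice labelled Sirt6-/- were KO1 with 73 cells and KO3 with 54 cells, and the wild-type mice were WT1 with 69 cells and WT2 with 88 cells. Each well held 1 cell, so the mouse is the replicate, with 2 mice per genotype, and the labels do not say whether a mouse gave 1 tumour or several.

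Dividing cells raise these transcripts late in the cell cycle. Cyclin A and cyclin B activate CDK1, which starts mitosis, and kinetochores then bind centromeres to spindle microtubules. The spindle checkpoint holds the anaphase-promoting complex until all chromosomes are attached, after which securin and cyclin B are destroyed and the cell divides. Many of these genes are held silent in resting cells by the DREAM complex, whose MuvB core binds a promoter element called the cell cycle genes homology region, and are switched on late in the cycle by MuvB with B-MYB and FOXM1. The transcription factor NF-Y binds CCAAT boxes in many of the same promoters. In epidermis, division belongs to basal cells, and cells that differentiate leave the cycle.

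The 4 mice were first set against their labels. Sirt6, the gene named by the genotype, lay at 27.0 CPM, the count scaled to the library total, in KO1 and 14.5 CPM in KO3, against 16.7 CPM in WT1 and 25.2 CPM in WT2. Its level thus did not separate the genotypes, and which exons these reads covered was not tested, so KO1 and KO3 go by their label here. No plate held cells of both genotypes, and plate and genotype cannot be told apart. Total counts per cell were 523999 to 1684464 with a median of 1130412, and the median cell had counts for 6367 genes in KO1 and 6614.5 in KO3, against 7009 in WT1 and 5783.5 in WT2. The keratins Krt14 and Krt5 had counts in 100% of the cells and Trp63 in 97.5%. The other keratinocyte markers were less widely detected, Itga6 in 91.9% of the cells, Cd34 in 72.9% and Krt15 in 62.0%. At least 2 markers of another lineage were found in 0 cells for fibroblasts and melanocytes, 1 cell of KO3 for endothelium, and 1 cell of KO1 and 3 cells of WT2 for immune cells. The 6 immune markers summed to 3.51 CPM in KO1 and 13.1 CPM in KO3, against 6.30 CPM in WT1 and 28.3 CPM in WT2, with Cd3e and Adgre1 at 0 in all 4 mice. Cells with at least 1 of these markers numbered 9 in KO1 and 15 in KO3, against 17 in WT1 and 29 in WT2. The macrophage gene Lyz2 had counts in WT2 alone, in 11 cells, and Cd68 was found in 18.7% of all cells. The part of such transcripts in the results was not tested.

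Promoter sequences are shown as background. Whether they bear on how the members move together from cell to cell, described further on, was not tested. RefSeq promoters on GRCm38.p6, which run from 250 bases before to 50 bases after a gene's start, were at hand for 31 of the 37 members; Ccna2, Spc24, Aurkb, Tpx2, Kif20a and Pimreg had no entry in the table used. The 100 bases before the start are printed for 4 of the 5 members with an entry whose level followed the other members most closely. They lie at chr11:117849137-117849236 for Birc5 (plus strand), chr7:122159335-122159434 for Plk1 (plus strand), chr9:22389207-22389306 for Anln (minus strand), chr2:129297213-129297312 for Ckap2l (minus strand). Capitals mark the letters of the cell cycle genes homology region, searched as TTTGAA, as its reverse complement TTCAAA and as the palindrome TTCGAA. Capitals also mark the CCAAT box, which reads ATTGG on the other strand.
Birc5: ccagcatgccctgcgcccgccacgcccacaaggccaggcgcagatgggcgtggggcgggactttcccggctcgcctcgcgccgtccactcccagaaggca
Plk1: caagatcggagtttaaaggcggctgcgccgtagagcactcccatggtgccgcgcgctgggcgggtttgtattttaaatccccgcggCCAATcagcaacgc
Anln: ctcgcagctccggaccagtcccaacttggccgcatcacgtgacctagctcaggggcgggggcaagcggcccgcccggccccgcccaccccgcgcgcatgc
Ckap2l: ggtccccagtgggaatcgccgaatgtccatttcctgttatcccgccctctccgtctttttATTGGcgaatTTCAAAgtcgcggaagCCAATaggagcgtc
Plk1 has 1 CCAAT box in this stretch and Ckap2l has 2 that flank a TTCAAA, while the stretches of Birc5 and Anln hold neither kind of letters.

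The homology region letters lie around the start itself in most members. A stretch of 30 bases, with only the copy of these letters nearest the start in capitals, is printed for 9 of the 10 members that followed the others most closely among those with such letters within 50 bases of the start. The stretches lie at chr7:122159453-122159482 for Plk1, chr9:22389168-22389197 for Anln, chr2:129297225-129297254 for Ckap2l, chr10:69352910-69352939 for Cdk1, chr9:70421533-70421562 for Ccnb2, chr2:118598231-118598260 for Bub1b, chr2:164769888-164769917 for Ube2c, chr19:37376351-37376380 for Kif11, chr1:189688067-189688096 for Cenpf, each read along the strand of its gene.
Plk1: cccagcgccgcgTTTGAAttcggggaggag
Anln: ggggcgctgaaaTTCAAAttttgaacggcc
Ckap2l: ttattggcgaatTTCAAAgtcgcggaagcc
Cdk1: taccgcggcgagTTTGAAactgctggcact
Ccnb2: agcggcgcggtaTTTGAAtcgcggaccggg
Bub1b: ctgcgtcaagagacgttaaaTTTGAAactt
Ube2c: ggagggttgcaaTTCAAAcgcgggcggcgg
Kif11: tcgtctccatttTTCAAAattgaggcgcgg
Cenpf: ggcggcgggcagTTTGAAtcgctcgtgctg
In 5 of these stretches the letters are TTTGAA, in the other four TTCAAA.

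Across the 300 base windows, the homology region letters were found in 25 of 31 members (80.6%), against 19.2% of the 32851 promoters in the table. CCAAT letters were found in 24 members (77.4%), against 37.4% of all promoters, and both kinds in 22 members (71.0%), against 7.52%. With the homology region letters restricted to 50 bases on either side of the start, a window chosen after the positions had been seen, the shares were 77.4% of members (24 of 31) and 5.31% of all promoters. Matches of the 2 motifs can overlap by an end letter, and matches that overlap were counted for both. Neither was found in the windows of 4 members, Birc5, Nuf2, Mad2l1 and Pttg1. These matches describe letters in the windows and not bound sites.

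Across cells, mitotic transcripts were spread very unevenly, and the mice differed widely in how many cells had them. A cell had counts for a median of 9 of the 37 members in KO1 and 21.5 in KO3, against 14 in WT1 and 4 in WT2. KO3 and WT2 are the extremes, and the genotypes alternate in the order KO3, WT1, KO1, WT2 from high to low. At least 10 members were detected in 47.9% of the cells of KO1 (35 cells, exact Clopper-Pearson 95% interval 36.1 to 60.0) and 85.2% of KO3 (46 cells, 72.9 to 93.4), against 68.1% of WT1 (47 cells, 55.8 to 78.8) and 27.3% of WT2 (24 cells, 18.3 to 37.8). At least 20 members were detected in 23.3% of the cells of KO1 and 55.6% of KO3, against 40.6% of WT1 and 17.0% of WT2. These intervals cover counting error only.

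**Figure D1:**
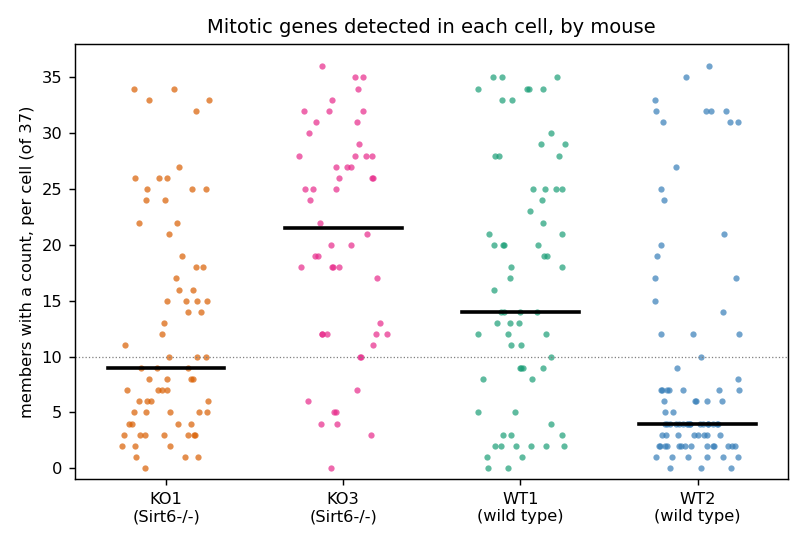
Members with a count in each cell (vertical axis, of 37) for the 2 mice labelled Sirt6-/- and the 2 wild-type mice; each point is 1 cell, the bar is the median of the mouse, and the dotted line lies at 10 members. The medians are 9 in KO1 and 21.5 in KO3, against 14 in WT1 and 4 in WT2.

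The difference of the mean shares of cells with at least 10 members was 18.9 percentage points (mice labelled Sirt6-/- minus wild type), less than the pooled SD of 27.6 points between mice of a genotype. It came to 0.25 points without KO3 and to -1.55 points without WT2, and to 37.5 without KO1 and 39.3 without WT1. With 2 mice against 2, an exact two-sided permutation test cannot give a p below 0.333. After each cell was thinned to 500000 counts, the shares were 45.2% in KO1 and 85.2% in KO3, against 68.1% in WT1 and 27.3% in WT2, so the order of the mice was the same at equal depth. Where mice shared a plate, the few cells there left wide intervals that overlap those of the other mouse. On the plate that held KO3, 37.5% of the 8 cells of KO1 there had at least 10 members (interval 8.5 to 75.5), and on the plate of WT1, 28.6% of the 7 cells of WT2 there (3.7 to 71.0).

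In KO1, WT1 and WT2 a minority of cells carried most of the mitotic RNA, while in KO3 the cells with at least 20 members were 30 of 54. Cells with at least 20 members held 66.0% of the member counts in KO1 and 81.5% in KO3, against 81.2% in WT1 and 75.8% in WT2. Within such cells, which were picked by the same counts, the median summed level of the members differed little between mice: 4160 CPM in KO1 and 3712 CPM in KO3, against 3731 CPM in WT1 and 4172 CPM in WT2. The cells with the most member RNA, 1 in 10 of each mouse, held 44.7% of the member counts in KO1 and 29.7% in KO3, against 35.8% in WT1 and 61.5% in WT2, where mitotic RNA was packed into the fewest cells. Cells with many members also had more genes detected. The median was 6979 genes in KO1 and 6968 in KO3, against 7327 in WT1 and 7320 in WT2, in cells with at least 20 members, and 5938.5, 5898.5, 5858 and 5556 in the same order in cells with fewer than 10. Within mice, the number of members detected followed the number of genes detected with Pearson's r of 0.56 in KO1 and 0.56 in KO3, against 0.69 in WT1 and 0.72 in WT2, over the 54 to 88 cells of a mouse. A count of members is itself part of the count of genes, and how far RNA content accounts for the relation was not tested.

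Member by member, the same order of mice recurred, and it showed more in how many cells had a transcript than in its level in them. The share of cells with a count was highest in KO3 for 33 of the 37 members and lowest in WT2 for 30. The same counts over all genes were not taken, so these are not read as particular to the members. WT2 also had the fewest genes detected per cell (median 5783.5), while the most were in WT1 (7009) and not in KO3 (6614.5). The median share over members was 27.4% in KO1 and 55.6% in KO3, against 42.0% in WT1 and 22.7% in WT2. The mean level in the cells that had the transcript differed less, with a median over members of 100.8 CPM in KO1 and 111.1 CPM in KO3, against 104.9 CPM in WT1 and 124.6 CPM in WT2, and it was highest in WT2 for 16 members. In a sum over cells, fewer cells with a transcript and less RNA per cell cannot be told apart, so levels per mouse are read beside these shares.

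Levels per mouse below are TMM-scaled CPM of the counts summed over the cells of a mouse, and gene positions are on GRCm38. Of the genes of mitotic entry, Cdk1 lay at 70.4 CPM in KO1 and 148 CPM in KO3, against 89.4 CPM in WT1 and 55.3 CPM in WT2. Ccnb1, encoding cyclin B1, lay at 77.8 and 219 CPM in KO1 and KO3, against 175 and 149 CPM in WT1 and WT2, and is uncertain because 76.3% of its non-zero values were not whole, which means reads shared with similar sequences. Cyclin B2 (Ccnb2) lay at 66.3 and 110 CPM in KO1 and KO3, against 90.9 and 51.1 CPM in WT1 and WT2. For all 3, KO1 and KO3 differed from each other by more than the genotype means did. Cyclin A2 (Ccna2), at 57.8 and 77.8 CPM in KO1 and KO3, against 81.1 and 45.1 CPM in WT1 and WT2, was 1 of 6 members highest in WT1; its exons overlap Exosc9 on the other strand, and the labels name no strand setting.

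Among genes of chromosome structure, Top2a, the topoisomerase that untangles sister chromatids, lay at 106 and 235 CPM in KO1 and KO3, against 141 and 130 CPM in WT1 and WT2. Cdca5, encoding the cohesin protector sororin, lay at 23.5 and 42.7 CPM in KO1 and KO3, against 31.1 and 11.2 CPM in WT1 and WT2. Mki67, which coats mitotic chromosomes, lay at 109 and 228 CPM in KO1 and KO3, against 112 and 91.6 CPM in WT1 and WT2. Of its non-zero values 36.4% were not whole. Mki67 was found in 46.6% of the cells of KO1 and 79.6% of KO3, against 40 of the 69 cells of WT1 and 42.0% of WT2. The chromosomal passenger complex holds the Aurora B kinase with survivin and borealin. Survivin (Birc5) lay at 46.0 and 87.0 CPM in KO1 and KO3, against 61.2 and 40.9 CPM in WT1 and WT2, and borealin (Cdca8) at 51.3 and 137 CPM, against 83.9 and 49.5 CPM. Aurora B (Aurkb) lay at 28.5 and 60.8 CPM in KO1 and KO3, against 56.9 and 33.7 CPM in WT1 and WT2. All 3 were highest in KO3, and the lowest mouse was WT2 for Birc5 and Cdca8 and KO1 for Aurkb.

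The centromere and kinetochore genes were less uniform. Cenpa, the histone H3 variant of centromeres, lay at 55.3 and 122 CPM in KO1 and KO3, against 108 and 68.3 CPM in WT1 and WT2, and Cenpe, a kinetochore motor, at 25.5 and 36.8 CPM, against 34.99 and 17.1 CPM. Ndc80, Nuf2, Spc24 and Spc25 encode the complex that grips microtubules. Ndc80 (chr17:71496100-71526857) lay at 14.3 and 18.3 CPM in KO1 and KO3, against 8.50 and 4.99 CPM in WT1 and WT2, and Spc25 (chr2:69193895-69206194) at 17.7 and 23.3 CPM, against 15.1 and 10.4 CPM. KO1 and KO3 both exceeded WT1 and WT2 for these 2 subunits and not for the other two: Nuf2 lay at 18.4 and 53.7 CPM in KO1 and KO3, against 20.3 and 12.7 CPM in WT1 and WT2, and Spc24 at 23.5 and 33.3 CPM, against 34.8 and 22.0 CPM. Cenpf (chr1:189640606-189688086), a protein of the outer kinetochore, had the opposite order, with 8.63 and 12.8 CPM in KO1 and KO3, against 14.8 and 25.6 CPM in WT1 and WT2. Its shares of cells ran otherwise, at 12.3% and 38.9% of the cells of KO1 and KO3, against 21.7% and 13.6% of WT1 and WT2, and its 21 cells in KO3 averaged 31.8 CPM, against 156.5 CPM in its 12 cells in WT2. Cenpf had the lowest level per kilobase of exon of all members (1.00 CPM per kb) and Cdc20 the highest (133 CPM per kb).

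Of the checkpoint genes, the kinase gene Ttk (chr9:83834689-83872389) lay at 16.9 and 25.5 CPM in KO1 and KO3, against 16.0 and 15.4 CPM in WT1 and WT2. Bub1b, encoding BubR1, lay at 24.2 and 77.0 CPM in KO1 and KO3, against 73.0 and 37.5 CPM in WT1 and WT2, and Mad2l1, encoding the anaphase inhibitor MAD2, at 41.3 and 73.4 CPM, against 74.2 and 32.8 CPM. The kinase gene Bub1 lay at 30.3 and 42.6 CPM in KO1 and KO3, against 32.6 and 18.5 CPM in WT1 and WT2. Of the 4 checkpoint genes, only the levels of Ttk did not overlap between the genotypes. Among the regulators and targets of the anaphase-promoting complex, Cdc20, its activator, was the most widely detected member, in 66.5% of all cells, and lay at 173 and 424 CPM in KO1 and KO3, against 244 and 154 CPM in WT1 and WT2; of its non-zero values 39.7% were not whole, and its exons overlap Elovl1 on the other strand. Ube2c, the ubiquitin-conjugating enzyme of the complex, lay at 25.2 and 119 CPM in KO1 and KO3, its lowest and highest mice, against 64.8 and 82.9 CPM in WT1 and WT2. Securin (Pttg1, chr11:43420250-43426251) lay at 23.6 and 32.1 CPM in KO1 and KO3, against 15.4 and 14.5 CPM in WT1 and WT2. The levels of the groups did not overlap, while the shares of cells with a count did, at 64.4% and 68.5% of KO1 and KO3, against 65.2% and 48.9% of WT1 and WT2. Fbxo5, encoding the complex's inhibitor EMI1, was among the least detected members (15.8% of all cells), at 11.1 and 8.57 CPM in KO1 and KO3, against 8.53 and 4.54 CPM in WT1 and WT2, so that KO3 and WT1 were nearly equal.

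Of the spindle kinases and motors, Plk1, the kinase that acts from entry to cytokinesis, lay at 33.9 and 91.2 CPM in KO1 and KO3, against 62.6 and 29.4 CPM in WT1 and WT2, with 45.3% of its non-zero values not whole. Aurka, the spindle pole kinase, lay at 14.7 and 41.4 CPM in KO1 and KO3, against 29.1 and 19.7 CPM in WT1 and WT2. Tpx2, which activates it, lay at 60.4 and 79.9 CPM, against 63.3 and 34.1 CPM. The midzone kinesin gene Kif20a, whose exons overlap Cdc23, lay at 47.5 and 54.5 CPM in KO1 and KO3, against 60.4 and 21.9 CPM in WT1 and WT2. Kif4, a chromosome-bound kinesin, lay at 15.9 and 17.8 CPM in KO1 and KO3, against 16.9 and 15.5 CPM in WT1 and WT2. It was found in 15.1% and 31.5% of the cells of KO1 and KO3, against 33.3% and 15.9% of WT1 and WT2. Its exons overlap Pdzd11 on the other strand, which had 51.7 CPM over all cells, against 16.4 CPM for Kif4. The overlap leaves the level of Kif4 uncertain, although 0.0% of its non-zero values were not whole. Psrc1 (chr3:108383839-108388231), encoding a microtubule-binding protein, lay at 46.1 and 41.5 CPM in KO1 and KO3, against 13.1 and 34.97 CPM in WT1 and WT2, and was the only member lowest in WT1. It was found in 53.4% and 51.9% of the cells of KO1 and KO3, against 26.1% and 36.4% of WT1 and WT2. The 6 other members of this role are the motor genes Kif11 and Kif23, the microtubule bundler gene Prc1, Anln, Ckap2l and Pimreg. They lay between 4.72 CPM (Pimreg in WT2) and 111 CPM (Prc1 in KO3).

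**Figure D2:**
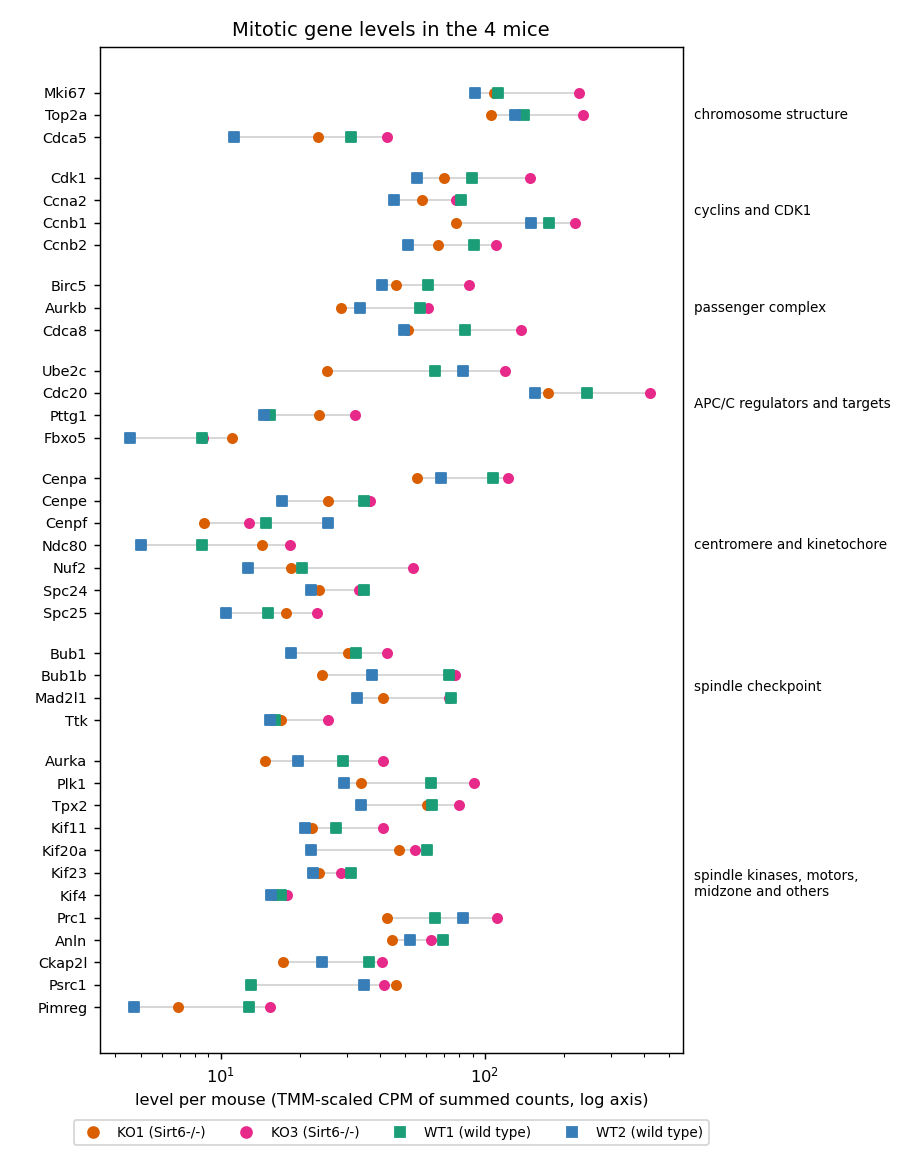
Level of each of the 37 members in the 4 mice (TMM-scaled CPM of summed counts, log axis), grouped by role; circles are the mice labelled Sirt6-/- and squares the wild-type mice, and grey lines join the lowest and the highest mouse. KO3 is highest for 28 members and WT2 lowest for 25.

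No member was called different between the genotypes. In edgeR's quasi-likelihood test with Benjamini-Hochberg adjustment over 16567 genes, 0 of the 37 members passed an adjusted p of 0.05 (background 0% of all genes), and their adjusted p ran from 0.93 to 1. Without adjustment, 2 members had p below 0.05, Pttg1 (p = 0.038) and Ndc80 (p = 0.0416), which is near the background of 5.12% (848 genes). DESeq2 called 0 members, with a background of 0.911% (148 genes). The median log2 difference of the members (mice labelled Sirt6-/- over wild type) was 0.33, with 28 positive, 8 negative and Spc24 at 0.00, against -0.01 over all genes. It was -0.15 without KO3, 0.09 without WT2, 0.71 without KO1 and 0.72 without WT1. The summed member level on the TMM scale was 1521 CPM in KO1 and 3074 CPM in KO3, against 2174 CPM in WT1 and 1542 CPM in WT2, so KO1 and WT2 were almost equal. The log2 ratio of the genotype means of the unscaled sums, 0.33, was less than the pooled SD of 0.57 between mice of a genotype, and came to -0.24 without KO3.

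KO1 and KO3 both exceeded WT1 and WT2 for 6 of 37 members, against 17.0% of all genes, and both were lower for 1 member, Cenpf, against 18.7% of all genes. For Ndc80 the log2 difference was 1.27 ± 0.45 (SE, n = 2 mice each; adjusted p = 0.957 in edgeR). Securin (Pttg1) had 0.90 ± 0.31 (SE; adjusted p = 0.93 in edgeR) and Psrc1 0.87 ± 0.52 (SE; adjusted p = 0.965 in edgeR). The differences of Spc25, Fbxo5 and Ttk were 0.68, 0.59 and 0.43, and that of Cenpf was -0.92 ± 0.44 (SE; adjusted p = 0.965 in edgeR), but 0.19 on means of log2(CPM + 1) over cells. Single mice moved several of these values by over 1.5 times. Without WT2, Fbxo5 came to 0.20, Spc25 to 0.44, Psrc1 to 1.74 and Cenpf to -0.47. Without WT1, Fbxo5 came to 1.12 and Psrc1 to 0.33. Ttk came to 0.10 without KO3 and to 0.71 without KO1. The share of members with groups that did not overlap is close to the background in the upward direction and below it in the downward direction.

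Differences between mice of a genotype were the more uniform. The level was higher in KO3 than in KO1 for 35 of 37 members, against 48.1% of all genes, with a median log2 difference of 0.86 over members and -0.01 over all genes. It was higher in WT1 than in WT2 for 33 of 37 members, against 48.9% of all genes, with medians of 0.66 over members and -0.02 over all genes. Each of these sets 1 mouse against 1 mouse and has no replicate check. The full order KO3, WT1, KO1, WT2 from high to low was found in 15 members, and its share over all genes was not taken. By role, the summed levels of the 4 genes of the anaphase-promoting complex group were 233 CPM in KO1 and 583 CPM in KO3, against 332 CPM in WT1 and 256 CPM in WT2. Those of the 4 checkpoint genes were 113 and 219 CPM in KO1 and KO3, against 196 and 104 CPM in WT1 and WT2.

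Within each mouse, the mitotic genes varied together from cell to cell. Correlations are Pearson's r over the cells of a mouse of log2(CPM + 1), after linear trends on total counts and on detected genes were taken out, and are given as descriptions. The points share a mouse, plates and depth. Only genes detected in 10% or more of the cells of each mouse were used, which left 35 members (all but Pimreg and Fbxo5) and 10643 genes in all. The mean r over the 595 pairs of members was 0.296 in KO1 and 0.292 in KO3, against 0.302 in WT1 and 0.385 in WT2, while the mean over pairs of all genes was 0.0014. Of the pairs, 526 had a positive r in all 4 mice. Members of the same role (97 pairs, mean r 0.333) were hardly closer to each other than members of different roles (498 pairs, 0.316).

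The closest pairs joined partners of a complex and genes of different roles alike. Survivin and borealin (Birc5 and Cdca8), subunits of the passenger complex, had r of 0.596 in KO1 and 0.607 in KO3, against 0.682 in WT1 and 0.778 in WT2. Plk1 and Tpx2 had a mean r of 0.639, Ccnb2 and Cenpa 0.637, and Ccna2 and Birc5 0.634. The subunits of the Ndc80 complex were less tight, between 0.266 for Ndc80 with Spc24 and 0.404 for Spc24 with Spc25, and Aurka had 0.284 with its activator Tpx2. Fewer of the cells have counts for Ndc80 (17.3%) than for Birc5 (54.9%), and the part of sparse counts in these values was not tested.

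A mitotic score, the mean z-score of the 35 members with the gene in question left out of its own score, orders the members by how closely they follow the rest. Survivin (Birc5) stood highest, with a mean r of 0.779 over mice and 0.71 to 0.887 in single mice. Plk1 (0.748), Kif20a (0.707), Cdca8 (0.694), Ccna2 (0.654) and Anln (0.651), the scaffold of the cleavage furrow, followed. The r was positive in all 4 mice for 34 of the 35 members, beside a background of 11.5% of genes; the score is made of the members, so nothing is read from this count. At the low end stood Cdca5 (0.399), Psrc1 (0.249) and Pttg1 (0.093). Securin (Pttg1) had r of 0.016 in KO1 and 0.381 in KO3, against 0.008 in WT1 and -0.033 in WT2, although it was the second most widely detected member, in 60.6% of all cells. In 3 of the 4 mice its r was thus near 0. Its mean level in the cells with a count was low, at 37.9 and 45.1 CPM in KO1 and KO3, against 24.0 and 28.7 CPM in WT1 and WT2. The medians over members were 100.8 to 124.6 CPM, and the part of its low level in its r was not tested. Psrc1 had 0.198 and 0.401 in KO1 and KO3, against 0.083 and 0.315 in WT1 and WT2.

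The members spread along a second axis, their relation to DNA replication genes. Against a score of 43 replication genes, Cdk1 had a mean r of 0.517, Spc24 0.483, Top2a 0.475, Ccna2 0.445 and Cdca5 0.420. The r of Cdca5 with the mitotic score, 0.399, was the higher of its pair in 1 of 4 mice. At the other end Cenpf had -0.143, with 0.01 and -0.233 in KO1 and KO3, against -0.078 and -0.272 in WT1 and WT2. Ube2c (-0.019), Cenpa (-0.013), Kif23 (-0.010) and Ccnb2 (-0.004) lay near 0. Cyclins A2 and B2 thus had similar r with the mitotic score (0.654 and 0.609) and different r with the replication score. Aurka (0.017) and Aurkb (0.336), kinases of the same family, differed in the same way, as did the kinetochore genes Cenpe (0.032) and Spc24. No test was made of these differences.

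**Figure D3:**
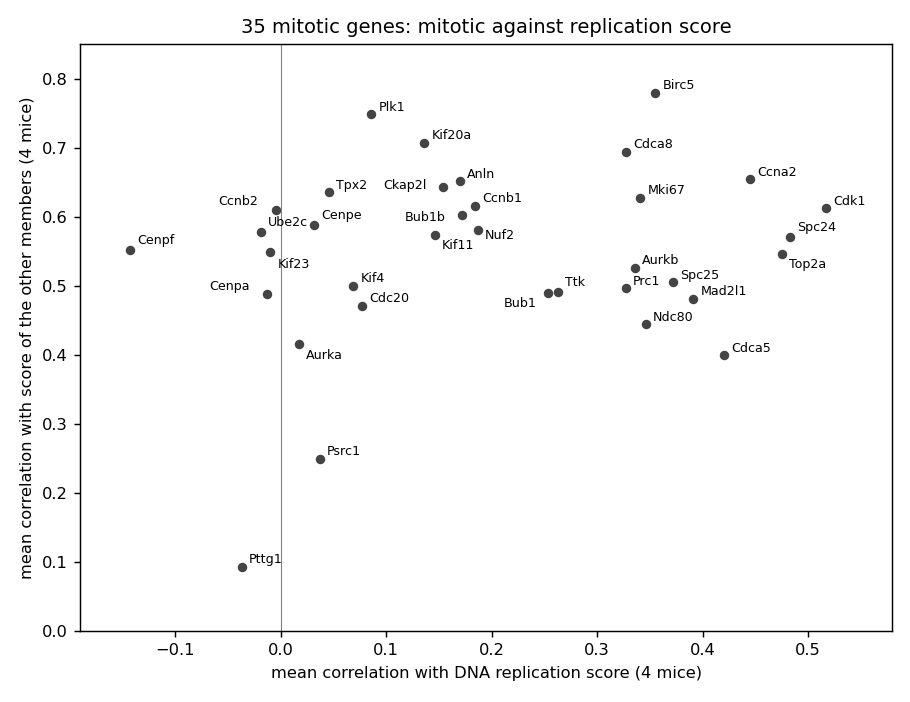
Each point is 1 of the 35 members used; the horizontal axis is its mean correlation over the 4 mice with the DNA replication score and the vertical axis that with the score of the other members. Cdk1, Spc24 and Top2a lie to the right, Cenpf to the left of 0, and Psrc1 (0.249) and Pttg1 (0.093) at the bottom.

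The other mitosis genes of a separate list moved with the members. Of 68 such genes, 63 were positive in all 4 mice, against the background of 11.5%, with a mean r of 0.394. Hmmr, which encodes a spindle-associated protein, had 0.738, Pbk, a mitotic kinase gene, 0.680, and Kif22 and Racgap1 0.656 each. The last in order were Bub3 (0.073), Zwint (0.020) and Mad1l1 (0.006). Of all genes outside the members, the 10 closest to the score were Hmmr, Pbk, Kif22, Racgap1, Cdca3 (0.621), Hist1h2ap (0.612), Pclaf (0.609), Kif2c (0.606), Melk (0.587) and Ncapg (0.587). Hist1h2ap encodes a histone H2A and Pclaf a partner of the sliding clamp PCNA, and both also had high r with the replication score (0.509 and 0.585). The histone genes of this cluster are near-identical, so the value of Hist1h2ap is uncertain.

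DNA replication genes were tied to the score more loosely. Of 43 genes, 29 were positive in all 4 mice and 0 negative, with a mean r of 0.198. Tyms (0.397), Tk1 (0.380) and Rrm2 (0.359), enzymes of nucleotide supply, and Mcm10 (0.370) were highest, and Ccne1 (0.043), E2f1 (0.019), Gins2 (-0.024) and Ung (-0.029) lowest. Ung and Ccne1 had r of 0.587 and 0.516 with the replication score, so they followed the replication genes and not the mitotic ones. The replication and mitotic scores correlated with r of 0.479 in KO1 and 0.285 in KO3, against 0.331 in WT1 and 0.278 in WT2. Of 10 cell cycle inhibitors and G1 cyclins, 1 was negative in all 4 mice (Ccnd2, encoding cyclin D2, mean r -0.221) and 1 was positive in all 4 (Cdkn1b, encoding the CDK inhibitor p27, 0.054). These shares of 10.0% each are near those of all genes outside the members, 10.0% negative and 11.2% positive.

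Glycolysis genes, whose high level in some of these cells is the subject of the study, stood slightly on the negative side of the mitotic score. The mean r over 19 genes was -0.067 in KO1 and -0.058 in KO3, against -0.093 in WT1 and -0.063 in WT2. Negative in all 4 mice were 6 genes, against 9.97% of all genes, and positive in all 4 were 3, against 11.5%. Hexokinase 2 (Hk2), which phosphorylates glucose, had -0.273 and -0.261 in KO1 and KO3, against -0.225 and -0.267 in WT1 and WT2. Hk2 ranked among the 10 genes with the lowest r of all. Pyruvate kinase (Pkm) had a mean of -0.195, Gpi1 -0.154 and Aldoa -0.147, though Aldoa was positive in 1 mouse. On the other side stood the lactate transporter genes Slc16a3 (0.070) and Slc16a1 (0.053), lactate dehydrogenase B (Ldhb, 0.060) and hexokinase 1 (Hk1, 0.040). Hk2 was thus negative and Hk1 positive in all 4 mice. The r of Hk1 was small, at 0.102 and 0.021 in KO1 and KO3, against 0.036 and 0.003 in WT1 and WT2. The sign of the list's mean depends on the trend taken out: with a trend on total counts alone it was 0.113.

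Differentiation genes were on the negative side too. Of 16 suprabasal genes used, 9 were negative in all 4 mice and 0 positive, with a mean r of -0.114, or 0.028 with a trend on total counts alone. Calml3, a calmodulin-like gene of stratified epithelium, had -0.174 and -0.384 in KO1 and KO3, against -0.164 and -0.257 in WT1 and WT2. The desmosomal genes Dsc2 (-0.196) and Dsg1a (-0.195) and the protease inhibitor gene Cst6 (-0.192) were next. Other genes of the list did not share this, among them the classic early keratins, with mean r of -0.002 for Krt10 and -0.043 for Krt1. Sbsn (-0.001), Krtdap (-0.029) and Lgals3 (-0.040) also lay near 0, and the signs of all of these differed between mice. Basal genes lay around 0 (18 genes, mean -0.002), between Itga6 (0.121, positive in all 4 mice), which encodes the CD49f used in the sort, and Cd44 (-0.127).

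**Figure D4:**
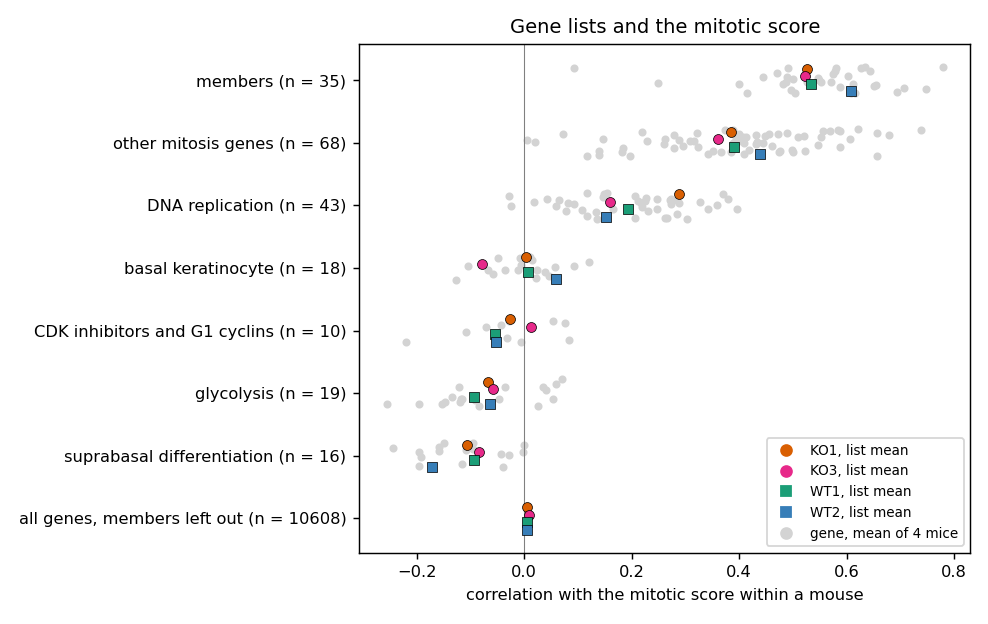
Correlation with the mitotic score within a mouse (horizontal axis) for each gene list; coloured symbols are the mean over the list in each mouse (circles, mice labelled Sirt6-/-; squares, wild type) and grey points single genes averaged over the 4 mice, left out for all genes. The list means fall from 0.394 for other mitosis genes to 0.198 for replication, -0.070 for glycolysis and -0.114 for suprabasal genes.

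The 10 genes at the opposite end from the mitotic genes were Mxd4, Hbegf, Neat1, Endou, Ahnak2, Urah, Synj2, Hk2, Lgals8 and Slc48a1, each negative in all 4 mice. Mxd4, which encodes a MAX-binding repressor that opposes MYC, had the lowest r, with -0.293 and -0.465 in KO1 and KO3, against -0.356 and -0.270 in WT1 and WT2. Hbegf, encoding a ligand of the EGF receptor, had a mean of -0.286 and the nuclear RNA Neat1 -0.282.

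Between the genotypes, the neighbouring lists had 0 genes called by edgeR at an adjusted p of 0.05, as for the members. The median log2 difference (mice labelled Sirt6-/- over wild type) was 0.22 for 75 other mitosis genes, 0.24 for 46 replication genes and -0.01 for 23 glycolysis genes. For 25 suprabasal genes it was 0.71, with 20 positive, and for 18 basal genes -0.63, with 18 negative. KO1 and KO3 were both lower than WT1 and WT2 for 11 of the 18 basal genes, against the background of 18.7%, and both higher for 11 of the 25 suprabasal genes, against 17.0%.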

How the data were processed

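Full-length cDNA of single sorted cells was sequenced after a modified Smart-seq2 preparation (per the labels' protocols). The authors deposited a table of expected counts per gene and cell, made with STAR and RSEM on mm10 (GRCm38), per the submitters' processing notes. Tool versions and strand settings: not given in the sources used here. In all, 21.5% of the expected counts above 0 were not whole numbers (tolerance 1e-06), which marks reads divided between similar sequences. The protocol has no molecular identifiers, so counts are reads. Symbols and gene positions came from GENCODE M21 (GRCm38) and 53857 of the 54247 IDs matched a symbol; where a symbol had several IDs, as Aldoa did, the protein-coding ID with the most counts was used. No cell was left out and no doublet caller was run, since wells were sorted as single cells; 0 pairs of cells had identical values.

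For genotypes, counts were summed per mouse, rounded, and tested with edgeR 4.0.16 in R 4.3.3 (TMM, filterByExpr, quasi-likelihood test, two-sided, Benjamini-Hochberg; 2 residual degrees of freedom). The SE printed with a log2 difference is the size of that difference divided by the square root of the F statistic of edgeR's test. DESeq2 1.42.0 and limma 3.58.1 were alternatives. The p-values measure the spread between these mice, plates included. Scripts were tested on simulated data. For co-variation, log2(CPM + 1) per cell was freed of linear trends on log10 total counts and detected genes within each mouse. A cell was thinned at random to 500000 counts where depth was equalised. Named genes outside the members are the 4 highest and 4 lowest of each list and the 10 highest and 10 lowest of all genes by mean correlation with the mitotic score, plus Sirt6, the cell type markers and Krt1, the last named after its values were seen. The promoter sequence of 1 member is not reported here. The members and lists were chosen with earlier results of these data known.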

Additional observations from a re-analysis of the deposited data

How the results depend on the processing

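Of the values recomputed under each alternative, 83 stayed within the spread between mice (for counts of calls, within 1.5 times) and 7 moved beyond it. For the genotype differences that spread was larger than the difference itself, so staying within it does not show a stable value. The median member difference and the summed level changed sign within it without KO3, and the share of cells did so without WT2. DESeq2 called 148 genes where edgeR called 0. With trends on log10 total counts only, the mean pairwise r of the members was 0.408, that of replication genes with the mitotic score 0.359, of glycolysis genes 0.113 and of suprabasal genes 0.028. The last 2 changed sign, and cells with more genes detected score higher in every mouse (r of 0.497 in KO1 and 0.511 in KO3, against 0.648 in WT1 and 0.684 in WT2). Thinning to 500000 counts gave -0.054 for glycolysis, and Spearman's rho gave -0.066 for suprabasal genes. Cenpf was reversed, at 0.19 (adjusted p = 0.999, limma), on means of log2(CPM + 1) over cells; the cause was not tested. The other 69 values of named members kept their direction, and nothing is read from this count. These members were named because their levels did not overlap between the genotypes, so leaving out a mouse could hardly reverse them. Over alternatives Ndc80 ran from 0.49 to 1.72, Pttg1 from 0.65 to 1.11 and Psrc1 from 0.33 to 1.74.

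Leaving out a mouse leaves an arm with 1 mouse, which is assumed to vary like the others. The number of genes called stayed at 0. The median member log2 difference ranged from -0.15 to 0.72, the log2 ratio of summed levels from -0.24 to 0.73, and the difference in the share of cells from -1.55 to 39.3 percentage points, with the mice that set these extremes named beside the results. No paired analysis was possible because the mice are numbered 1 and 3 against 1 and 2 and share only 1 number.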
